A study of Mus musculus with 84 samples.

Results

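Mammary tumors induced by a Wnt-1 transgene were compared with mammary tumors induced by a Neu transgene on the larger of the study's array types, which carried 15360 spotted mouse cDNA clones. Samples were chosen by their titles: 23 Wnt-1-induced tumors (Wnt-1 tumors) and 12 Neu-induced tumors (Neu tumors), 35 of the 84 samples of the series. The Wnt-1 tumors came from mice carrying Wnt-1 behind the mouse mammary tumor virus (MMTV) promoter, on a mixture of FVB (more than 75%), SJL and C57BL/6 strains, and were taken at 9 to 56 weeks of age. The study reports Ha-Ras mutations in some of these Wnt-1 tumors, and Ha-Ras status was not used here. The Neu tumors came from MMTV-Neu mice, which carry a rat cDNA of the normal Neu receptor behind the same promoter, on a pure FVB background, and were taken at 32 to 60 weeks. Oncogene, strain background and age therefore changed together and cannot be told apart here. The numbers in the sample titles differed as well: all Neu tumors are numbered 53 or higher, and 14 of the 23 Wnt-1 tumors lower. What these numbers stand for is not given in the titles. RNA of whole frozen tumors was labeled with Cy5 and hybridized against Cy3-labeled reference RNA, a single pool of several mouse organs and lactating mammary gland. Virgin mammary glands of nontransgenic FVB mice (5 arrays, age 9 weeks) are given beside the tumors as a description, without a test. Lung metastases of both kinds, some grown in nontransgenic mice from injected Neu tumor cells, are described in the same way. In bulk tissue, fewer cells of a type and less RNA per cell cannot be told apart.

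Wnt ligands bind Frizzled receptors and Lrp coreceptors, which stops the destruction of beta-catenin and lets it act with TCF/LEF factors on target genes, among them inhibitors that feed back on the pathway. Neu (Erbb2) is a receptor tyrosine kinase of the epidermal growth factor receptor family that signals, mostly with Erbb3, through Ras and through PI3K and Akt. The mammary epithelium has an outer basal, or myoepithelial, layer that contracts, and an inner luminal layer of hormone-sensing cells and secretory progenitors.

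Values are log2 ratios of tumor to reference RNA. Where 3 values are given for a group they are its lowest, median and highest array, and a difference is the mean of Wnt-1 tumors minus the mean of Neu tumors on the log2 scale, with its standard error (SE). A gene was called at a limma adjusted p under 0.05. Of all clones, 6692 of 15360 (43.6%) were called, and after clones of a gene were averaged, 3555 of 7766 genes (45.8%), 1767 higher in Wnt-1 tumors (22.8%) and 1788 lower (23%). At least 2-fold differences were found in 500 called genes (6.44%). In 413 genes (5.32%) the groups did not overlap on any array, with 179 higher (2.3%) and 234 lower (3.01%) in Wnt-1 tumors. Because so many genes were called, the members of each pathway list are read against these shares and against the median difference of all genes, -0.03. Array medians lay between -0.07 and -0.01, and the SD of the log2 ratios of an array had a median of 0.934 in Wnt-1 tumors and 1.02 in Neu tumors. Wnt1 and Erbb2 were not analysed here, because no clone carries either symbol alone, so the arrays give no direct reading of either transgene. E-cadherin (Cdh1), the adhesion molecule of epithelial cells, lay at 0.73, 1.71 and 2.48 in Wnt-1 tumors and 0.64, 1.13 and 1.55 in Neu tumors, above all 5 virgin glands (-0.74 to 0.04) in both groups.

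Feedback inhibitors of the Wnt pathway separated the tumors. Of 10 measured antagonists and feedback inhibitors, 6 were higher and 2 lower in Wnt-1 tumors, with a median difference of 0.49, and 4 of the 6 had no overlap between groups. Sostdc1, a secreted inhibitor of Wnt and BMP signaling, lay at 0.03, 0.79 and 2.29 in Wnt-1 tumors and -2.95, -2.08 and -1.3 in Neu tumors, a difference of 2.94 (SE 0.18, adjusted p = 7.04e-16). Axin2, the scaffold of the beta-catenin destruction complex, lay at 0.44, 1.37 and 2.01 in Wnt-1 tumors and -1.93, -0.87 and -0.03 in Neu tumors. All 23 Wnt-1 tumors were above the highest Neu tumor for both genes, and every Neu tumor was also below the lowest virgin gland, whose values ran from -0.90 to -0.48 for Sostdc1 and from 0.06 to 0.71 for Axin2. Dkk3, a secreted protein of the Dickkopf family, differed by 2.30 (SE 0.19, adjusted p = 1.15e-12). Apcdd1, a membrane inhibitor that binds Wnt ligands, differed by 1.78 (SE 0.16, adjusted p = 1.6e-11), yet it was lower in both tumor groups than in the virgin glands: -0.35 to 1.25 in Wnt-1 tumors, -2.44 to -0.72 in Neu tumors and 1.82 to 2.60 in virgin glands. One of the lower genes was Tle4, a corepressor that TCF factors recruit, at 0.86, 1.90 and 3.80 in Wnt-1 tumors and 2.87, 3.35 and 4.30 in Neu tumors (difference -1.5, SE 0.24, adjusted p = 2.87e-06), where 20 of 23 Wnt-1 tumors lay below every Neu tumor.

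Of 3 measured Wnt ligands, Wnt5b and Wnt5a were higher, by 1.90 and 2.21, Wnt3a was not called (difference -0.21, adjusted p = 0.698), and Wnt5b separated the groups without overlap, at 1.74, 2.55 and 3.65 in Wnt-1 tumors and -0.34, 0.80 and 1.45 in Neu tumors. The receptors and coreceptors went both ways: of 11 measured, 3 were higher and 3 lower, with a median of -0.02. Among them Ptk7, a coreceptor of planar polarity signaling with an inactive kinase domain, lay at -1.08, -0.65 and -0.08 in Wnt-1 tumors and -2.17, -1.79 and -1.5 in Neu tumors, with no overlap (difference 1.23, SE 0.08, adjusted p = 1.38e-14). Fzd1 was 2.2-fold higher over its 2 clones, which differed by 1.86 and 0.41. Fzd6 was lower (difference -0.42, SE 0.08, adjusted p = 4.47e-05). Of 16 members of the machinery between receptor and TCF, 7 were higher and none lower (43.8% called, against 45.8% of all genes). This count dropped to 4 when Wnt-1 tumors with title numbers under 53 were left out. It was 3 where every clone of a gene had to be called. No difference reached 2-fold, and the largest of those named here were Tcf7l2 at 0.59 (SE 0.17, adjusted p = 0.00348) and Tcf7l1 at 0.54 (SE 0.12, adjusted p = 0.000364). Beta-catenin itself (Ctnnb1) was not called, with a difference of 0.46 (SE 0.35, adjusted p = 0.299), nor was Lef1, at -0.18 (SE 0.29, adjusted p = 0.647).

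Of 18 measured beta-catenin targets, 8 were higher and 2 lower (median 0.33), and 4 of the 8 did not overlap. Besides Axin2 these included Enc1, an actin-binding protein, at -0.02, 0.96 and 1.5 in Wnt-1 tumors and -0.86, -0.38 and -0.08 in Neu tumors (difference 1.41, SE 0.11, adjusted p = 4.03e-13). Twist1, a helix-loop-helix factor of mesenchymal cells, differed by 1.19 (SE 0.12, adjusted p = 2.23e-10), with all 3 clones higher. For Tnfrsf19, an orphan member of the tumor necrosis factor receptor family, 22 of 23 Wnt-1 tumors were above every Neu tumor, but its 3 clones differed by 0.33, 0.85 and 2.77.

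**Figure D1:**
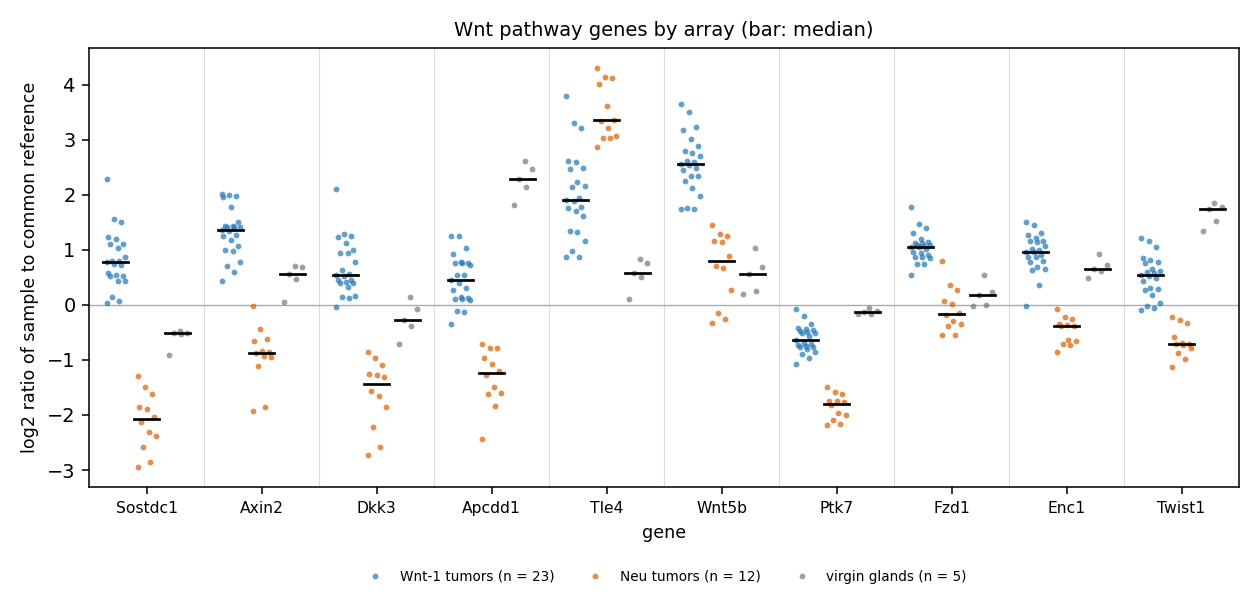
Log2 ratio of sample to common reference for 10 Wnt pathway genes on each array of Wnt-1 tumors (n = 23), Neu tumors (n = 12) and virgin glands (n = 5), with points for arrays and bars for medians. Sostdc1, Axin2, Dkk3, Apcdd1, Wnt5b, Ptk7, Enc1 and Twist1 show no overlap between the tumor groups, while Tle4 runs the other way.

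The promoters of the pathway genes were searched for the TCF/LEF core CTTTGAT on both strands, in the RefSeq sequence (build GRCm38.p6) reaching from 250 bases before to 50 bases after each annotated start. The core was found in 2 of the 10 called-higher ligands, receptors, inhibitors and targets that have a sequence, and in none of the 4 called lower and the 12 not called, against 3.73% of all 32851 promoters. Both are shown because they are the members in which the core lies this close to the start, with the core in capitals: Wnt5b on the minus strand of chr6:119449337-119449636 and Tnfrsf19 on the minus strand of chr14:61037938-61038237, each printed 5′ to 3′ along its gene. The match starts 71 bases before the start site in Wnt5b and 202 bases before it in Tnfrsf19.
Wnt5b: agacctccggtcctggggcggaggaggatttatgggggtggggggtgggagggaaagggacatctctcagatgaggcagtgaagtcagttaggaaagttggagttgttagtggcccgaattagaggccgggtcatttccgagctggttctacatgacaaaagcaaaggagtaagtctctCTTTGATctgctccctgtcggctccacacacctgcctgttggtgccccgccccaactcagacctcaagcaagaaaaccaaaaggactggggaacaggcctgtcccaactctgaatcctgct
Tnfrsf19: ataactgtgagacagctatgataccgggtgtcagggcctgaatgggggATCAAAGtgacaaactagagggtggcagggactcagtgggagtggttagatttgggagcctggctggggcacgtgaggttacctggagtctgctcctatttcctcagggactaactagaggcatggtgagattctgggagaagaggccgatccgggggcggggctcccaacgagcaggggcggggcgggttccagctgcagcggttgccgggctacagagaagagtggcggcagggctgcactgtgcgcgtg

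Only 3 of the 15 listed receptors and ligands of the Neu receptor family were measured, and Erbb2 itself was not among them. Of 3 measured ErbB receptors and ligands, Erbb3, the usual partner of Neu, was lower in Wnt-1 tumors, at 0.29, 1.06 and 1.35 against 1.16, 1.5 and 1.91 in Neu tumors (difference -0.50, SE 0.09, adjusted p = 4.03e-05), a call that was lost after quantile normalization (difference -0.21, adjusted p = 0.142). Egfr was not called, with a difference of 0.07 (SE 0.08, adjusted p = 0.514). Of 11 adaptors and inhibitors, 3 were higher and 3 lower (2 and 1 where every clone had to be called). The SH2 adaptor Nck1 had no overlap between groups, at -0.51, 0.13 and 0.53 in Wnt-1 tumors and 0.61, 0.79 and 1.03 in Neu tumors, although one clone differed by -1.19 and the other by -0.13, which was not called. Muc1, a mucin that binds ErbB receptors, was higher in Wnt-1 tumors (difference 1.10, SE 0.24, adjusted p = 0.000265).

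Downstream of the receptor, Deptor and Phlpp1 of the PI3K, Akt and mTOR list and Nf1 of the Ras list had the largest differences of their lists. Deptor, which binds and inhibits mTOR, lay at -1.57, -0.47 and 0.24 in Wnt-1 tumors and 0.86, 1.76 and 2.22 in Neu tumors, a 5-fold difference with the same direction on both clones (-1.49 and -3.16). Phlpp1, a phosphatase that inactivates Akt, lay at 0.20, 0.45 and 0.82 in Wnt-1 tumors and 1.41, 1.65 and 2.15 in Neu tumors (difference -1.25, SE 0.07, adjusted p = 1.76e-16). Neither gene overlapped between groups. Nf1, which switches off Ras, differed by -1.97 (SE 0.25, adjusted p = 2.4e-08), with 22 of 23 Wnt-1 tumors below every Neu tumor. The lists as a whole did not follow: of 13 PI3K, Akt and mTOR genes 2 were higher and 3 lower (4 and 4 without the Wnt-1 tumors 42 and 49, whose arrays had an SD over 1.3), and of 11 Ras and MAPK feedback targets 3 were higher and 2 lower. Among the targets Fos, an immediate early transcription factor, was higher in Wnt-1 tumors by 0.97 (SE 0.22, adjusted p = 0.000339) and Etv4, an Ets factor, by 0.48 (SE 0.11, adjusted p = 0.000595), while Phlda1 was lower by a difference of -0.45 (SE 0.11, adjusted p = 0.000665). The part of the Ha-Ras mutations of some Wnt-1 tumors in these values was not tested.

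Notch pathway genes were called often, 10 higher and 6 lower of 22, with opposite signs among its direct outputs. Hey1, a repressor that active Notch induces, lay at -0.82, 1.16 and 2.55 in Wnt-1 tumors and 3.58, 3.98 and 4.21 in Neu tumors, a 7.34-fold difference carried by both clones (-2.92 and -2.83). Nrarp, another Notch-induced gene whose product dampens Notch, lay at 0.90, 1.38 and 1.80 in Wnt-1 tumors and -0.16, 0.32 and 0.84 in Neu tumors, so both genes separated the groups, in opposite directions. The Notch coactivator Maml1 was 1.68-fold higher (SE 0.09 on the log2 scale, adjusted p = 5.44e-09). Notch1, the receptor, was not called over its 4 clones (difference -0.03, SE 0.09, adjusted p = 0.82). Its clones disagreed, from -0.83 to 0.38, with 2 called higher and 1 lower, so the average does not show an unchanged receptor.

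Genes of prolactin, growth hormone and Jak-Stat signaling were lower in Wnt-1 tumors in 8 of 22 cases and higher in 2. The share called, 45.5%, was near the 45.8% of all genes, and at 1.5-fold 5 members were left, all lower. Cish, a feedback inhibitor that Stat5 induces, lay at -0.77, -0.34 and 0.33 in Wnt-1 tumors and -0.14, 0.52 and 1.23 in Neu tumors (difference -0.85, SE 0.12, adjusted p = 1.86e-07). Jak1 differed by -0.73 (SE 0.12, adjusted p = 2.43e-06) and the growth hormone receptor Ghr by -0.36 (SE 0.09, adjusted p = 0.000564), whereas Stat5a was not called (difference 0.20, SE 0.13, adjusted p = 0.217). The insulin-like growth factor (IGF) receptors went in opposite directions. Igf1r, the signaling receptor, lay at 0.00, 0.41 and 1.07 in Wnt-1 tumors and -1.04, -0.54 and -0.44 in Neu tumors (difference 1.08, SE 0.09, adjusted p = 2.38e-12). Igf2r, which removes Igf2 to lysosomes, lay at -0.62, -0.31 and 0.05 in Wnt-1 tumors and 0.49, 1.05 and 1.58 in Neu tumors (difference -1.3, SE 0.09, adjusted p = 3.54e-14). Both separated the groups without overlap. Igf2r was counted with the IGF binding proteins and partners, of which 1 was higher and 5 lower of 7, including Igfbp5 (difference -1.47, SE 0.24, adjusted p = 3.04e-06) and Igfals, the acid-labile subunit that stabilizes circulating IGF (difference -2.43, SE 0.44, adjusted p = 1.75e-05).

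Among growth factor ligands, 8 of 18 were higher in Wnt-1 tumors and 1 lower (50% called, against 45.8% of all genes). Midkine (Mdk), a heparin-binding growth factor, lay at -0.95, 1.13 and 1.67 in Wnt-1 tumors and -2.13, -1.68 and -0.99 in Neu tumors, a 5.85-fold difference. Pdgfa, a ligand of platelet-derived growth factor receptors, lay at 0.73, 1.52 and 2.03 in Wnt-1 tumors and -1.0, -0.73 and -0.24 in Neu tumors (difference 2.17, SE 0.11, adjusted p = 1.97e-18). Of 15 other receptor tyrosine kinases, 4 were higher and 4 lower, and 3 members, the first of them Igf1r, separated the groups. Axl, the receptor for Gas6, was higher by 0.83 (SE 0.08, adjusted p = 4.28e-11), and Mst1r, the receptor for macrophage-stimulating protein, was lower by a difference of -0.72 (SE 0.08, adjusted p = 8.73e-10). Axl lay at -0.31 to 0.27 in Wnt-1 tumors and -1.15 to -0.43 in Neu tumors, and Mst1r at -0.66 to 0.14 in Wnt-1 tumors and 0.17 to 0.96 in Neu tumors. Ddr1, a collagen receptor of epithelium, was also lower (difference -0.82, SE 0.18, adjusted p = 0.000219). Ngfr, the low-affinity neurotrophin receptor, was above every Neu tumor in all 23 Wnt-1 tumors, with clones at 1.98 and 0.66, and Gfra1, a coreceptor of Ret, was higher with a wider spread, at -4.25, -0.04 and 1.16 in Wnt-1 tumors and -3.10, -1.84 and -0.48 in Neu tumors.

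Single cell-contact and guidance genes also divided the tumors. As lists, Eph receptors and ephrins (50% called, median -0.24) and guidance genes (50%) were near the 45.8% of all genes. The share was 62.5% for G protein coupled receptors. Efnb1, a membrane-bound ephrin ligand, lay at -0.70, 0.07 and 0.60 in Wnt-1 tumors and -2.98, -1.48 and -0.81 in Neu tumors, without overlap, while Epha2, an ephrin receptor of epithelial cells, was lower in Wnt-1 tumors on both clones (-1.65 and -0.86). Of 22 semaphorins, plexins and other guidance genes, 9 were higher and 2 lower (5 and 1 with only the Wnt-1 tumors numbered 53 or higher). Plxna1, a semaphorin coreceptor, differed by 1.94 (SE 0.10, adjusted p = 8.95e-18) and Dpysl3, which relays semaphorin signals to the cytoskeleton, by 2.41 (SE 0.11, adjusted p = 1.34e-19), both without overlap. The related plexin Plxna3 was lower (difference -1.12, SE 0.28, adjusted p = 0.00101), but not called when Wnt-1 tumors with title numbers under 53 were left out (difference -0.50, adjusted p = 0.283). Nrp2, a coreceptor for semaphorins and vascular growth factors, was higher by 1.29 (SE 0.13, adjusted p = 8.86e-11), with clones at 0.33, 0.55 and 3.0. Of 24 G protein coupled receptors, 9 were higher and 6 lower, among them the oxytocin receptor Oxtr, through which myoepithelial cells contract, at a difference of 1.09 (SE 0.22, adjusted p = 7.91e-05), and the prostaglandin receptor Ptger2 at 0.98 (SE 0.18, adjusted p = 2.02e-05).

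**Figure D2:**
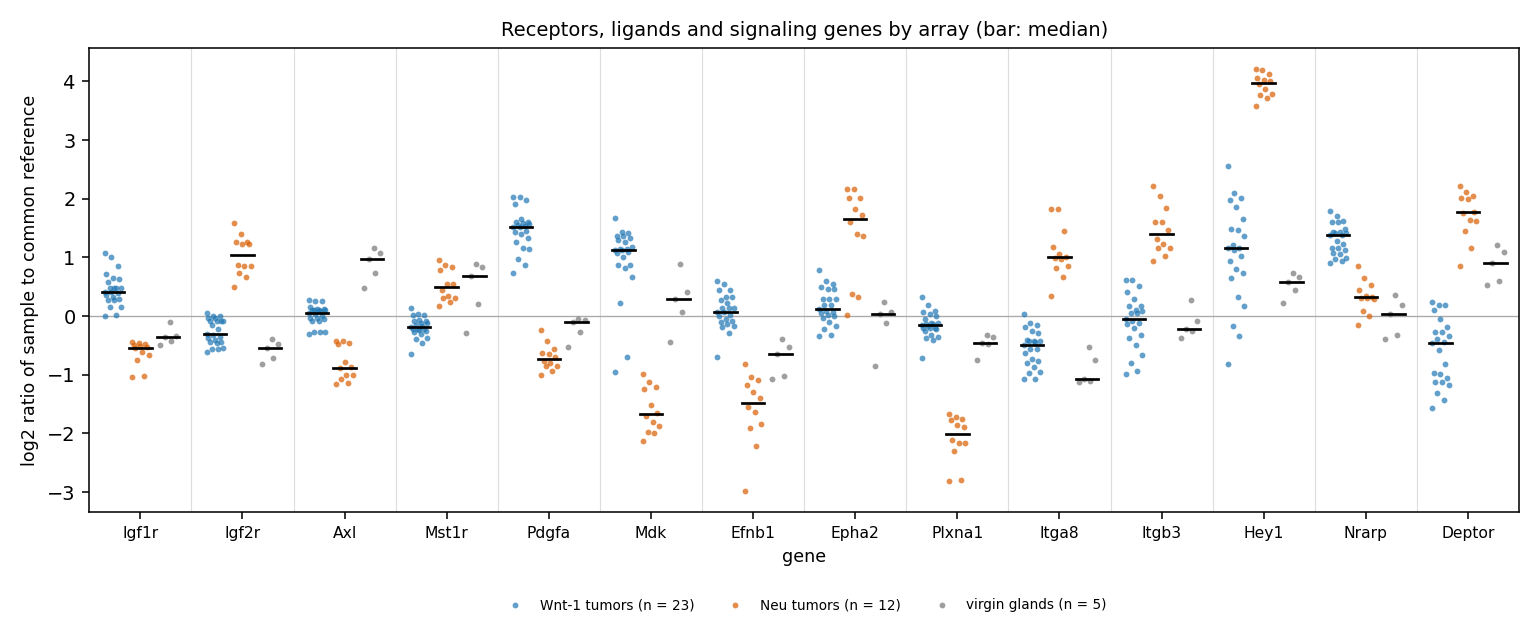
Log2 ratio of sample to common reference for 14 receptors, ligands and signaling genes on each array of Wnt-1 tumors (n = 23), Neu tumors (n = 12) and virgin glands (n = 5), with points for arrays and bars for medians. Igf1r, Axl, Pdgfa, Mdk, Efnb1, Plxna1 and Nrarp are higher, and Igf2r, Mst1r, Itga8, Itgb3, Hey1 and Deptor lower, on every Wnt-1 than on every Neu array; Epha2 overlaps.

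The list of TGF-beta and BMP receptors, Smad transducers and targets was higher in Wnt-1 tumors more often than lower, 12 against 3 of 23 (median 0.20). In it 5 members did not overlap, 2 of which, Id4 and Tgfb1i1, are also known for other roles. Tgfbr3, or betaglycan, the coreceptor that presents ligand, lay at 0.16, 0.64 and 1.45 in Wnt-1 tumors and -1.22, -0.77 and -0.21 in Neu tumors, and its 3 clones gave differences of 1.29 to 1.48. The BMP transducers Smad5 and Smad1 differed by 0.73 (SE 0.07, adjusted p = 1.34e-11) and 0.64 (SE 0.06, adjusted p = 2.3e-11), small differences that still left no overlap, with Smad1 at 0.32 to 1.09 in Wnt-1 tumors and -0.15 to 0.22 in Neu tumors. Ligands and antagonists were called higher in 4 of 13 cases and lower in none. That is 30.8% called, below the 45.8% of all genes, with a median of -0.02. Among the 4 were Fstl1, a secreted glycoprotein of stroma (difference 1.86, SE 0.24, adjusted p = 4.66e-08), and Bmp1, the protease that matures procollagen (1.05, SE 0.12, adjusted p = 3.92e-09).

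Integrin subunits were called in both directions. Of 17 measured, 6 were higher and 4 lower, which became 3 higher and 4 lower with only the Wnt-1 tumors numbered 53 or higher. The 3 differences of at least 2-fold were all lower. Itga8, which pairs with the beta-1 subunit to bind nephronectin, lay at -1.08, -0.50 and 0.04 in Wnt-1 tumors and 0.35, 1.0 and 1.83 in Neu tumors (difference -1.63, SE 0.13, adjusted p = 3.58e-13). Its ligand nephronectin (Npnt) lay at -3.01, -2.05 and -1.21 in Wnt-1 tumors and 2.13, 2.59 and 2.91 in Neu tumors. Both were without overlap, and the virgin glands, at -1.12 to -0.53 for Itga8 and -2.84 to -2.30 for Npnt, lay below every Neu tumor. The vitronectin receptor subunits Itgb3 and Itgb5 were lower as well, with differences of -1.56 (SE 0.15, adjusted p = 1.39e-10) and -1.13 (SE 0.10, adjusted p = 2.04e-11). In contrast Itga3, of the laminin receptor, was higher by 0.74 (SE 0.08, adjusted p = 7.71e-10) and Itga5, of the fibronectin receptor, by 0.73 (SE 0.09, adjusted p = 9.25e-09). Basement membrane genes were called higher in 7 and lower in 5 of 16 cases, with Lamc1, the common laminin gamma chain, at 0.46, 1.26 and 1.85 in Wnt-1 tumors and -0.30, -0.04 and 0.26 in Neu tumors, and Col7a1, the collagen of anchoring fibrils, 5.72-fold higher.

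Genes of cell junctions were called lower in 12 and higher in 8 of 31 cases (9 and 4 where every clone had to be called). N-cadherin (Cdh2) lay at -0.87, 0.34 and 0.62 in Wnt-1 tumors and -2.07, -1.5 and -0.90 in Neu tumors, with both clones higher (2.05 and 1.46). E-cadherin was not lower with it but higher, by 0.61 (SE 0.11, adjusted p = 8.92e-06; 0.0953 with all groups of the array type in one fit). P-cadherin (Cdh3), of basal cells, was higher by 0.98 (SE 0.11, adjusted p = 1.07e-09) through a single clone, at 1.98, while the other gave -0.01 and was not called. Crb3, which sets apical polarity, was lower without overlap, at -0.15, 0.34 and 0.72 in Wnt-1 tumors and 0.75, 1.06 and 1.42 in Neu tumors. Of 12 regulators of epithelial-mesenchymal transition, 7 were higher and 1 lower (median 0.43; 5 and 0 with only the Wnt-1 tumors numbered 53 or higher), with 4 that did not overlap, Cdh2 and Twist1 among them, and Tcf3, a helix-loop-helix factor that represses E-cadherin, at 0.31 to 1.02 in Wnt-1 tumors and -0.58 to 0.01 in Neu tumors.

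Mammary and epithelial transcription factors were called higher in 15 and lower in 10 of 45 cases, and 10 were at least 2-fold higher against 2 at least 2-fold lower. Tbx2, a T-box repressor, lay at -0.44, 0.08 and 0.87 in Wnt-1 tumors and -3.11, -2.14 and -1.23 in Neu tumors (difference 2.26, SE 0.14, adjusted p = 2.1e-15). Ets1 and Ets2, which act downstream of Ras, were higher by 1.18 (SE 0.08, adjusted p = 6.5e-15) and 1.11 (SE 0.09, adjusted p = 6.09e-13). Hoxd8, a homeobox factor, was lower (difference -1.41, SE 0.15, adjusted p = 9.09e-10), with 22 of 23 Wnt-1 tumors below every Neu tumor, and so was Gata3, the factor of luminal fate (difference -0.76, SE 0.17, adjusted p = 0.000417).

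The basal and the luminal progenitor marker lists moved in opposite directions, while the hormone-sensing luminal list was mixed. Of 16 basal and myoepithelial genes, 11 were higher in Wnt-1 tumors and 1 lower (median 1.15), 9 of them by at least 2-fold and 7 without overlap. Tgfb1i1, a focal adhesion protein of smooth muscle and myoepithelium, lay at 0.52, 1.07 and 1.75 in Wnt-1 tumors and -2.49, -1.96 and -1.49 in Neu tumors. Smooth muscle myosin (Myh11) lay at -0.69, 0.42 and 1.23 in Wnt-1 tumors and -1.48, -1.03 and -0.47 in Neu tumors (difference 1.42, SE 0.16, adjusted p = 2.66e-09). Myosin light chain kinase (Mylk) was higher over its clones by 1.21, but through 1 of them (2.47), the other at -0.05 not being called. The basal keratin Krt14 was not called on its single clone, with a difference of 0.10 (SE 0.07, adjusted p = 0.302), and Krt5, Trp63 and Acta2 were not analysed here. The mean log2 ratio of the 16 genes on an array ran from 0.35 to 0.89 over Wnt-1 tumors (median 0.63), from -0.81 to -0.44 over Neu tumors (median -0.60) and from 0.02 to 0.20 over virgin glands.

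Of 14 luminal progenitor genes, 7 were lower in Wnt-1 tumors and 2 higher (median -0.28), with 4 that did not overlap: Tspan8, Hey1, Lcn2 and Csn3. Lipocalin 2 (Lcn2), an iron-siderophore carrier of secretory epithelium, lay at -0.14, 1.25 and 2.49 in Wnt-1 tumors and 2.59, 3.05 and 3.90 in Neu tumors. Lbp, which binds bacterial lipopolysaccharide, was lower on both clones (-0.86 and -1.45). Elf5, the transcription factor of alveolar progenitors, was not called (difference -0.10, SE 0.21, adjusted p = 0.725). The mean of the list ran from -0.15 to 0.96 in Wnt-1 tumors, from 1.29 to 1.84 in Neu tumors and from -0.68 to -0.27 in virgin glands. Hormone-sensing luminal genes were lower in 5 and higher in 3 of 14 cases. Aqp5, a water channel, was lower by a difference of -1.32 (SE 0.16, adjusted p = 1.66e-08) and Cited4 by -0.92 (SE 0.18, adjusted p = 4.48e-05), while Stc2, an estrogen-induced hormone, was higher by 1.09 (SE 0.27, adjusted p = 0.00101). The median difference of the list was -0.24, but its mean on an array was higher in Wnt-1 tumors (median over arrays 0.30, against -0.01 in Neu tumors), since the list holds Krt19 with its difference of 6.04. The estrogen receptor Esr1 was not called as a gene (difference 0.31, SE 0.17, adjusted p = 0.131). Its clones gave 0.67, which was called (limma adjusted p = 0.0297), and -0.05, which was not.

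Among lists of other cell types, those of fibroblasts (64% called) and endothelium (57.1%) were above the 45.8% of all genes. The pericyte (44.4%), macrophage (38.9%), adipocyte (38.1%), B and plasma cell (33.3%) and T and NK cell (25%) lists were below it. Of 25 fibroblast genes, 16 were higher and none lower in Wnt-1 tumors, and the mean of the list ran from -0.41 to 0.51 in Wnt-1 tumors and from -1.47 to -0.20 in Neu tumors, with 19 of 23 Wnt-1 tumors above every Neu tumor. Endothelial genes were higher in 10 and lower in 2 of 21 cases (4 and 1 where every clone had to be called), with list means of -1.40 to -0.49 in Wnt-1 tumors and -1.25 to -0.87 in Neu tumors. The mean was above every Neu tumor in 19 of 23 Wnt-1 tumors, and below every Neu tumor in Wnt-1 tumor 42. The list of pericytes and vascular smooth muscle, which shares Cnn1 and Myh11 with the basal list, had means of -0.47 to 0.61 in Wnt-1 tumors and -0.66 to -0.01 in Neu tumors, with 22 of 23 Wnt-1 tumors above every Neu tumor. The part that these cells have in the higher matrix, TGF-beta and contractile genes was not tested. Macrophage genes were higher in 5 and lower in 2 of 18 cases, T and NK cell genes higher in 2 and lower in 1 of 12, and B and plasma cell genes higher in 2 and lower in 3 of 15, and the list means of these overlapped between the tumor groups. Adipocyte genes were called higher in 4 and lower in 4 of 21 cases, and the list means were below those of all virgin glands (1.68 to 2.13) in both groups, at -1.65 to -0.59 in Wnt-1 tumors and -1.58 to -1.01 in Neu tumors.

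**Figure D3:**
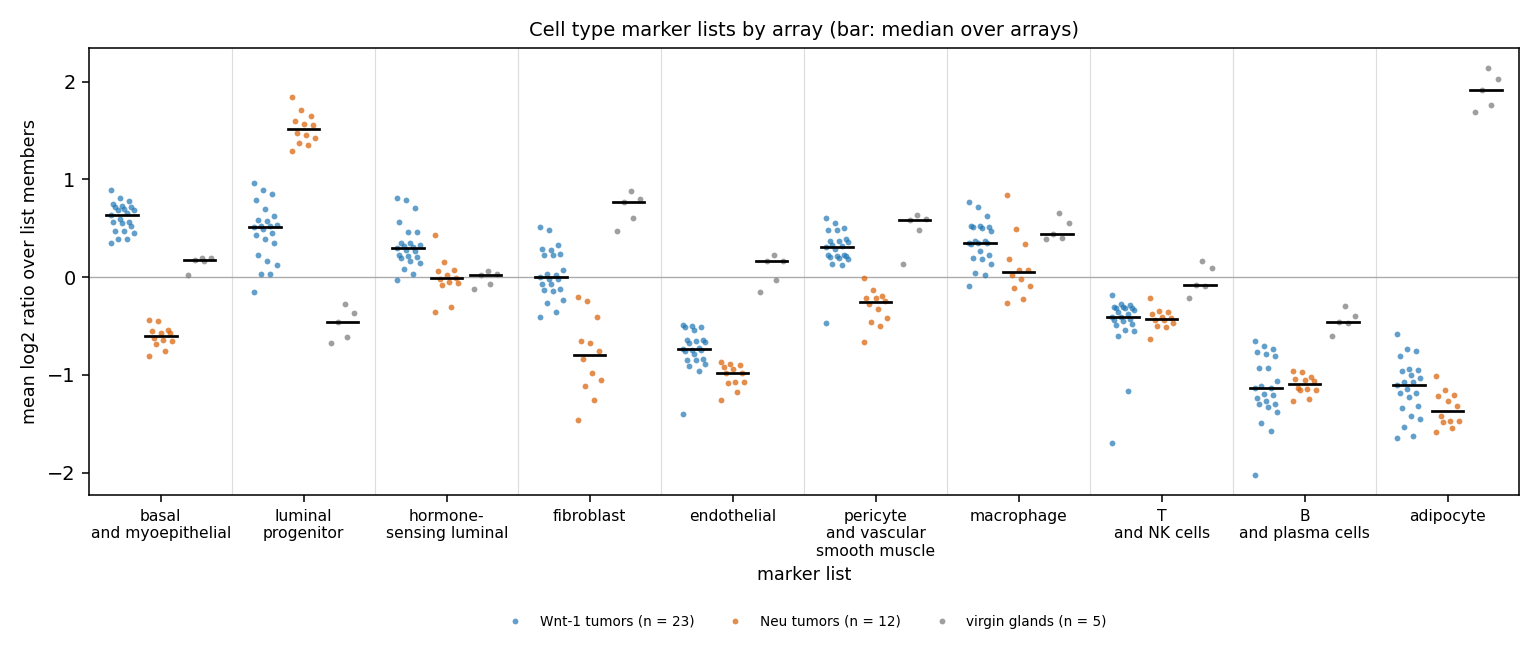
Mean log2 ratio over the measured members of 10 cell type marker lists on each array of Wnt-1 tumors (n = 23), Neu tumors (n = 12) and virgin glands (n = 5), with points for arrays and bars for medians. The basal list (medians 0.63 in Wnt-1 tumors and -0.60 in Neu tumors) and the luminal progenitor list (0.51 and 1.51) separate the tumor groups in opposite directions, and the lists of immune cells overlap.

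Of 14 measured MHC genes, 5 were higher and 4 lower in Wnt-1 tumors, and classes were not counted apart. The class II beta chain H2-Eb1, which displays peptides on antigen-presenting cells, lay at -0.22, 0.69 and 1.31 in Wnt-1 tumors and -1.41, -0.98 and -0.31 in Neu tumors, although its 4 clones ranged from 0.40 to 2.44. H2-Ab1, another class II beta chain, was higher by 1.51 (SE 0.23, adjusted p = 1.52e-06), the class II invariant chain Cd74 by 1.26 (SE 0.21, adjusted p = 6.85e-06) and the peptide-loading chain H2-DMa by 0.63 (SE 0.12, adjusted p = 2.87e-05). On the class I side, beta-2 microglobulin (B2m), its light chain, lay at -1.55, -0.63 and 1.38 in Wnt-1 tumors and -0.26, 1.43 and 2.60 in Neu tumors (difference -1.97, SE 0.22, adjusted p = 1.4e-09), and the peptide transporter Tap1 was lower on both clones (-0.97 and -0.52).

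Interferon response genes were lower in 18 and higher in 5 of 33 cases (median -0.34), with 8 at least 2-fold lower. Irf9, which binds DNA in the interferon-activated complex, lay at 0.00, 0.31 and 0.46 in Wnt-1 tumors and 0.48, 0.87 and 1.13 in Neu tumors, a small difference without overlap. Iigp1, an interferon-induced GTPase that acts against intracellular parasites, was 4.58-fold lower with its 3 clones between -2.31 and -2.12, and Ifi27 was 3.45-fold lower (clones at -1.5 and -2.07). In the opposite direction, Irf8, the interferon regulatory factor of myeloid cells, was higher, with clones from 0.15 to 2.35. Of 18 macrophage markers, 5 were higher, 2 lower and 11 not called, and the mean of the list overlapped between the tumor groups. Among the higher ones were Lgals3, at 1.03, 2.36 and 3.87 in Wnt-1 tumors and -1.20, 0.12 and 2.00 in Neu tumors, and the mannose receptor Mrc1 (difference 0.97, SE 0.16, adjusted p = 3.01e-06).

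Promoters of the interferon and MHC genes were searched on both strands for the tandem GAAA that interferon-activated complexes bind, written as GAAA, any 2 bases, GAAA. It was found in 7 of the 16 called-lower members that have a sequence, 3 of the 8 called higher and 5 of the 9 not called, against 3.44% of all promoters, so members of either direction held it. The class I light chain B2m (plus strand, chr2:122147437-122147736) and the antiviral enzyme Oas1a (minus strand, chr5:120907476-120907775) are shown as a called-lower member of each list, printed 5′ to 3′ along the gene with the matches in capitals. In B2m the match starts 139 bases before the start site. In Oas1a a pair of overlapping matches starts 20 and 14 bases before it.
B2m: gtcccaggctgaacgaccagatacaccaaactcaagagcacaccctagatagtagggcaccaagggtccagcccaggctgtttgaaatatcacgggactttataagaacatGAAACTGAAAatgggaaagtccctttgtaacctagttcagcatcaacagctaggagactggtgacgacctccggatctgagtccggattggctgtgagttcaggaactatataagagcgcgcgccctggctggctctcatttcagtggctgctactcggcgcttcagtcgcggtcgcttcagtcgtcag
Oas1a: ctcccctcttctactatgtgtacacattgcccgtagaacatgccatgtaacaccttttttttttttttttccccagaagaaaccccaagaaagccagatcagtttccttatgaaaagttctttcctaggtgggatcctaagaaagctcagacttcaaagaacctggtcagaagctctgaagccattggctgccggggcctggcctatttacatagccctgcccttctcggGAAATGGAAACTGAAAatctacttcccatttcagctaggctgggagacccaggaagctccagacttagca

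Metabolic lists were either about even or leaned lower in Wnt-1 tumors. Fatty acid oxidation genes were called higher in 3 and lower in 2 of 9 cases, and glutathione and NRF2 target genes higher in 5 and lower in 4 of 18. Of 19 genes of fatty acid and triglyceride synthesis, 9 were lower and 3 higher (6 and 1 where every clone of a gene had to be called). Srebf1, the transcription factor that drives this pathway, lay at -0.33, 0.35 and 1.04 in Wnt-1 tumors and 1.70, 2.89 and 3.25 in Neu tumors, a 5.4-fold difference. The elongase Elovl6 was lower without overlap, at a difference of -1.60 (SE 0.09, adjusted p = 5.08e-17), on both clones (-0.87 and -2.33). The citrate carrier Slc25a1 was lower mainly through 1 of its 3 clones (-2.66, against -0.39 and -0.15). The desaturase Fads1 went the other way, at -1.38, -0.73 and -0.22 in Wnt-1 tumors and -3.94, -3.24 and -2.25 in Neu tumors. Cholesterol synthesis was called lower in 3 and higher in 1 of 10 cases, or 40%, below the 45.8% of all genes. At 1.5-fold 1 of its genes was left, which was lower. Dhcr7, its last enzyme, was at a difference of -1.03 (SE 0.17, adjusted p = 3.5e-06).

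Of 15 genes of glycolysis and hypoxia, 9 were lower and none higher (median -0.48), and 6 did not overlap. Aldoc, an aldolase isozyme, lay at -0.27, 0.71 and 1.44 in Wnt-1 tumors and 3.07, 4.34 and 4.74 in Neu tumors, an 11-fold difference, and Car12, a hypoxia-induced carbonic anhydrase of the cell surface, was 5.83-fold lower. The liver-type phosphofructokinase Pfkl was lower over its clones (difference -0.48, SE 0.06, adjusted p = 1.21e-08), but these disagreed, at -1.48 and 0.52, both called. Oxidative phosphorylation genes were called lower in 13 and higher in 2 of 23 cases with no 2-fold difference, Ndufb8 of complex I lying at -0.58 to -0.13 in Wnt-1 tumors and -0.11 to 0.34 in Neu tumors. Of 15 chaperones and unfolded protein response genes, 8 were lower and none higher, with Eif2ak3, the kinase that senses stress in the endoplasmic reticulum, at a difference of -0.78 (SE 0.08, adjusted p = 1.82e-10) and Sel1l, of the degradation machinery, at -1.26 (SE 0.18, adjusted p = 4.65e-07).

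**Figure D4:**
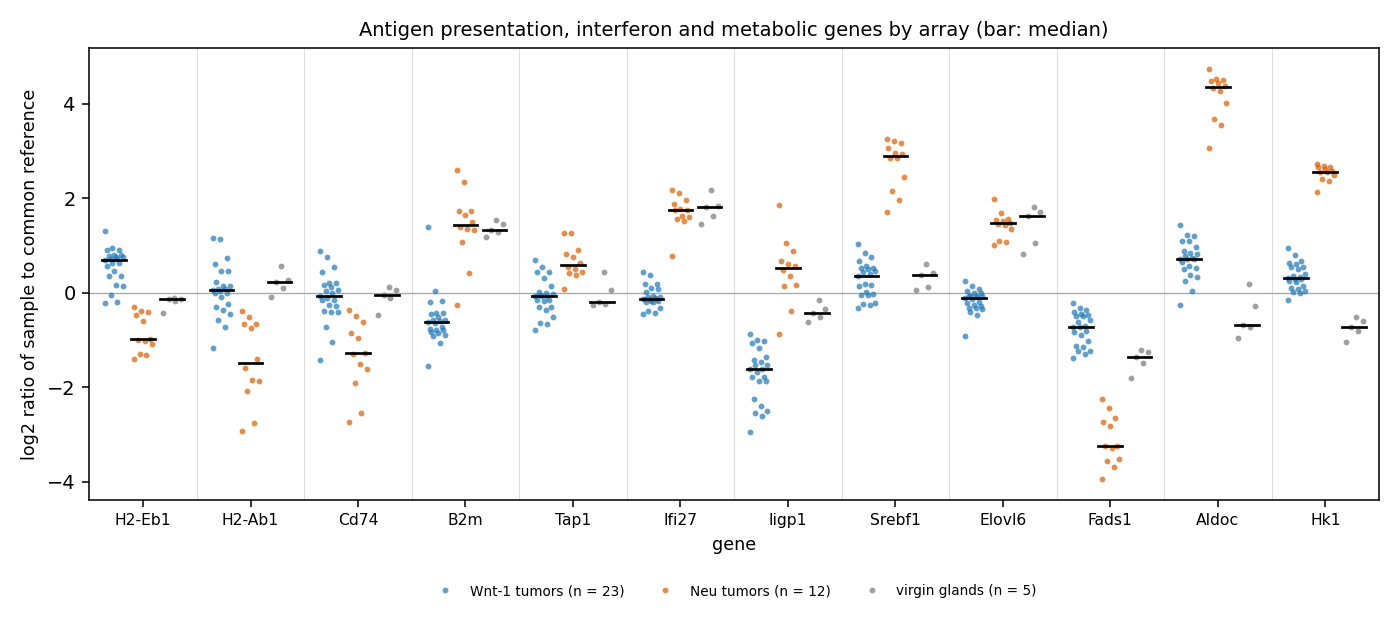
Log2 ratio of sample to common reference for 12 genes of antigen presentation, interferon response and metabolism on each array of Wnt-1 tumors (n = 23), Neu tumors (n = 12) and virgin glands (n = 5), with points for arrays and bars for medians. Class II genes (H2-Eb1, H2-Ab1, Cd74) and Fads1 are higher in Wnt-1 tumors, and B2m, Tap1, Ifi27, Iigp1, Srebf1, Elovl6, Aldoc and Hk1 are lower.

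Of 19 cyclins and cell cycle inhibitors, a list that mixes genes promoting and restraining division, 10 were higher in Wnt-1 tumors and 2 lower. Cyclin D2 (Ccnd2), which activates Cdk4 and Cdk6, lay at -0.03, 0.62 and 1.49 in Wnt-1 tumors and -2.63, -1.85 and -1.26 in Neu tumors, with clones at 1.87 and 2.92, and Cdk6 was 1.93-fold higher through 2 of its 3 clones (1.38 and 1.43, against 0.03). Among 33 genes of DNA replication and mitosis, 11 were higher and 1 lower (36.4% called, below the 45.8% of all genes). The counts were 6 and 1 with all groups in one fit, and 5 and 2 with only the Wnt-1 tumors numbered 53 or higher. The 1 lower gene of the main fit was Spag5, a spindle protein, at -1.35, 0.08 and 0.77 in Wnt-1 tumors and 1.08, 2.76 and 3.55 in Neu tumors, on both clones (-2.41 and -2.95). Of 12 p53 target genes, 7 were higher and 1 lower (median 0.40). Phlda3, a p53-induced inhibitor of Akt, lay at -0.51, -0.02 and 0.36 in Wnt-1 tumors and -1.85, -1.54 and -1.10 in Neu tumors, without overlap (difference 1.47, SE 0.08, adjusted p = 3.59e-17), and Sesn1, a stress-induced inhibitor of mTOR signaling, was higher by 0.60 (SE 0.08, adjusted p = 9.59e-08).

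The virgin glands give a position for both tumor groups. Of the 179 genes higher without overlap, 58 had Wnt-1 tumors alone outside the range of the virgin glands, all above it, and 75 had Neu tumors alone outside it, all below it. Of the 234 genes lower without overlap, 36 had Wnt-1 tumors alone outside the range, all below it, and 132 had Neu tumors alone outside it, all above it. The 23 Wnt-1 arrays span a wider range than 12 arrays would, which makes it harder for them to lie wholly outside, and the virgin glands differ from both tumor groups in fat content and age. Hey1, Phlpp1, Srebf1 and Itgb3 are examples with only the Neu tumors above the virgin glands, and Pdgfa, Col7a1 and Wnt5b are examples with only the Wnt-1 tumors above them. Lung metastases were described too, 10 from Wnt-1 and 5 from Neu tumors. Of the 5, 2 grew in nontransgenic mice after tail vein injection of primary Neu tumor cells. Over these metastases, 112 of the 179 genes (62.6%) were higher on every Wnt-1 than on every Neu array. Of the 234 genes, 161 (68.8%) were lower, against 4.21% higher and 5.4% lower among all genes. Most of these metastases, including all 5 Neu ones, share a title number with a tumor of the comparison in which the genes were picked. The animals may therefore not be independent, and the shares are not a repeat in new animals.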

How the data were processed

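The authors labeled sample RNA with Cy5 and reference RNA with Cy3, scanned the spotted cDNA arrays, scored spot quality and normalized each array. The deposited values used here are log2 ratios, sample over reference, after that normalization. Quality scores were not analysed here, so every clone was tested. On the 35 arrays 1 of 537600 values was missing.

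Groups came from the sample titles. Of 15360 clones, 11860 carried a single gene symbol in the probe table, 705 several and 2795 none. Single-symbol clones were averaged per gene, and clones that disagree are given in the text. The lists hold 887 measured genes. Wnt-1 and Neu tumors were compared by linear models with empirical Bayes variances (limma 3.58.1 in R 4.3.3), two-sided, at a Benjamini-Hochberg adjusted p under 0.05 over all clones or all genes, where 50% or more of a group's arrays had values. The fit was tested on simulated data. Named genes are up to 6 called members of smallest adjusted p in each list, and defining genes that were not called. Members and lists were chosen with earlier results of these data known, and no list was tested as a set. Title numbers and arrays do not say whether tumors came from separate mice, so p-values measure the spread between arrays. The alternatives were array centring, quantile normalization, extreme ratios set missing, arrays of SD over 1.3 left out, all groups in one fit, trend and robust eBayes, a 1.5-fold minimum, the methods' permutation t-test with fewer regroupings and no quality filter and single clones. Promoters came from RefSeq (GRCm38.p6). The arrays' number limits the precision.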

Additional observations from a re-analysis of the deposited data

How the results depend on the processing

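The count of called genes, 3555, ran from 3423 to 3740 and that of clones, 6692, from 6418 to 7041 when each array was left out in turn. With array centring, quantile normalization, extreme ratios set missing, arrays of SD over 1.3 left out, all groups in one fit or trend and robust eBayes, both counts stayed within 1.5 times. A permutation t-test after the study's methods, but with fewer regroupings (100, statistics pooled over genes or clones) and no filter on spot quality, called 2493 genes at P under 0.001 and 3546 after Benjamini-Hochberg adjustment, and 4617 and 6704 clones. Requiring a 1.5-fold difference left 2448 clones, 1188 genes and 244 of the 466 called list members. Chosen after seeing the data was a fit with only the Wnt-1 tumors whose title numbers are 53 or higher, because the SD of the log2 ratios varied less on their 9 arrays (0.924 to 1.06) than on the 14 with lower numbers (0.67 to 1.78): it called 3042 genes, raised the genes without overlap to 667 of 7766, as fewer arrays must lie apart, and turned the integrins to 3 higher and 4 lower (7 called). Genes without overlap ran from 413 to 473, list members called from 449 to 485 and all 115 called named genes kept their call, when single arrays were left out. Taken alone, 1 clone each of Cdh3 (-0.0137), Mylk (-0.0505) and Pfkl (0.52) had the opposite sign of the gene's difference. Lists that moved over 1.5 times with these tumors, or with every clone of a gene required to be called, have those counts beside them. At 1.5-fold, 3 p53 targets were left, all higher. Many other lists shrank too: called endothelial genes went from 12 to 3 and beta-catenin machinery from 7 to 1. Called G protein coupled receptors went from 15 to 5, growth factor ligands from 9 to 5 and chaperones and unfolded protein response genes from 8 to 2. No oxidative phosphorylation gene was left of 15. No named gene reversed under the other settings. No paired analysis was possible because the titles of the Wnt-1 and Neu tumors share no numbers on these arrays.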
